A study of Mus musculus with 8 samples.

Results

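The LIF pathway genes described here are Lif, Lifr, Il6st, Jak1, Stat3 and Socs3. With earlier results of these data known, these genes were chosen by name and not by a measured value. Their regions are the accessible regions that overlapped each gene, extended by 50 kb on both sides, by at least 1 bp. There were 59 such regions among the 76872 of the series, and no region fell in the windows of more than 1 of the 6 genes. The assay was ATAC-seq, which reads open chromatin from the places where the Tn5 transposase can insert adapters, in a clonal line of mouse induced pluripotent stem cells with the FUCCI2 cell cycle reporters. Mitotic cells were shaken off after a block of 6 hours with 200 ng/ml nocodazole, which stops spindle assembly, further cells were taken 1 and 3 hours after release from that block, and asynchronous cells had no nocodazole, with 2 libraries in each of these 4 groups and 50000 cells to a library. In every group the medium held LIF and serum together with a MEK inhibitor and a GSK3 inhibitor, and the cells sat on an irradiated feeder layer. The region list covers the series as a whole and carries positions alone, so that depth is unknown and a region may have been open in 1 library or in 8. No level, error or change between the groups can therefore be given, and the comparisons below are between genes, as descriptions with no test.

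LIF is a cytokine that binds a receptor made of LIFR and gp130, the product of Il6st. The receptor activates the kinase JAK1, which phosphorylates STAT3, and STAT3 then enters the nucleus and activates genes of the naive pluripotent state such as Klf4 and Tfcp2l1. Socs3 is itself induced by STAT3 and encodes an inhibitor that binds gp130 and JAK kinases. In mouse pluripotent cells this loop sustains self-renewal.

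Promoter sequences bear directly on the regions, since 5 of the 6 genes had a region across an annotated start and Lif had none. The sequences are from RefSeq, build GRCm38.p6, and run from 250 bases before to 50 bases after the start; entries existed for 6 of the 6 genes, with 2 starts for Lifr. Shown are Socs3, the target and inhibitor, at chr11:117969317-117969616 on the minus strand; Stat3 at chr11:100939491-100939790 on the minus strand; the first start of Lifr at chr15:7129322-7129621 on the plus strand; and, as the promoter without a region, Lif at chr11:4257318-4257617 on the plus strand. Capitals mark the STAT letters TTCNNNGAA, the GC box GGGCGG and the CCAAT box, read on both strands, and these matches did not overlap one another.
Socs3: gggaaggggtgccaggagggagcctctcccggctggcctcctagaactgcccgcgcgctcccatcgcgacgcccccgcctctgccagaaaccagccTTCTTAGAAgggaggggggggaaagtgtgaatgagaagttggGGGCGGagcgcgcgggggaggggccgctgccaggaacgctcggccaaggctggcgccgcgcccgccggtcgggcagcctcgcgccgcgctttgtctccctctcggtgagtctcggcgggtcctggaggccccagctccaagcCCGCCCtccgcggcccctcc
Stat3: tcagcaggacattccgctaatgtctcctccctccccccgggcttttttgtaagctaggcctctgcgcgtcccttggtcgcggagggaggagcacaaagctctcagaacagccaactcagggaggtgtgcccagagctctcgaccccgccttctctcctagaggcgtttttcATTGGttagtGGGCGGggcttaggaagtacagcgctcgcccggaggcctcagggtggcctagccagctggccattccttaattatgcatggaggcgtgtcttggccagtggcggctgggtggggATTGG
Lifr: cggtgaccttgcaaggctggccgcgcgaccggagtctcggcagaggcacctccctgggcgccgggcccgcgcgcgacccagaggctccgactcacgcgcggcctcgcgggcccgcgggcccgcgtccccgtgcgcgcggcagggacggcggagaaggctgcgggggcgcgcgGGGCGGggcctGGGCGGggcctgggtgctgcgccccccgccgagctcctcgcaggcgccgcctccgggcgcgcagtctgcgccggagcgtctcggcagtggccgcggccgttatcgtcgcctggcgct
Lif: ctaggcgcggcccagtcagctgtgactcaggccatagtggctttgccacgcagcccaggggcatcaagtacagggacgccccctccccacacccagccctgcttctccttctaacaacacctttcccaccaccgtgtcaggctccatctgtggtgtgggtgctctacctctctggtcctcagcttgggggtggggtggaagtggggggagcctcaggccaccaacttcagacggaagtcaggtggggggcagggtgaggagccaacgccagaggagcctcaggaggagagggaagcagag

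The start regions of the receptor, kinase, STAT3 and inhibitor genes covered most or all of these promoters. The Lifr region at chr15:7128862-7130023 was 1162 bp wide, reached 710 bp before and 451 bp past the start and held 300 of the 300 promoter bases. The Il6st region at chr13:112463625-112464378 was 754 bp wide and the Stat3 region at chr11:100939130-100939893 was 764 bp wide, each likewise with 300 promoter bases inside. The Socs3 region at chr11:117968835-117969609, of 775 bp, held 293 promoter bases. The Jak1 region at chr4:101264852-101265417 was the narrowest of the 5 at 566 bp and lay mostly past the start, with 194 bp before it, 371 bp after it and 244 promoter bases inside. Over all protein-coding genes with an annotated start, 53.3% had a region across a start. The 8903 regions across such starts had a median width of 689 bp, with quartiles of 484 and 902 bp. The Lifr region was thus wider than 91.7% of them, the Il6st, Stat3 and Socs3 regions were wider than 57.9%, 59.4% and 60.7%, and the Jak1 region was wider than 33.6%. The other annotated start of Lifr lay 5.71 kb from the nearest region.

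Lif, the ligand gene, had no region within 1 kb of its start or of its far end. The region nearest to the start, 313 bp wide at chr11:4258680-4258992, began 1.11 kb inside the gene, and the one nearest to the far end, 190 bp wide, ended 1.13 kb short of it. With 1 kb around either outer limit of the gene counted as an end, 5 of the 6 genes carried a region there, against 62.0% of the 21887 protein-coding genes. Within 1 kb of an annotated start the count was again 5 of 6, against 62.5%. The count at starts stayed at 5 at 500 bp and with regions of at least 200 bp, and was 6 at 2 kb. The shares of protein-coding genes for these start settings are not given here, so these counts have no background beside them. The count at gene ends turns on small distances and widths. At 2 kb Lif joined, giving 6 of 6 at ends, against 67.0% of protein-coding genes. At 500 bp the count at ends was 4 of 6, against 57.8%. There the Socs3 region, which spanned the annotated start, lay 0.727 kb from the outer limit. The Lifr call at a gene end rested on a region of 132 bp that lay 0.126 kb outside the outer limit and 39.1 kb from the first annotated start. With regions of at least 200 bp the count at ends was 4 of 6, against 57.5%.

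CpG content, unlike GC content, was higher in each of these promoters with a region across the start than in the 2 without. The CpG observed-to-expected ratio, which compares the number of CpG pairs with that given by the C and G content, was 1.07 for the first start of Lifr, 0.947 for Jak1, 0.943 for Il6st, 0.769 for Socs3 and 0.545 for Stat3. It was 0.231 for Lif and 0.188 for the other start of Lifr, the 2 promoters without a region at the start. The Lif promoter held 7 CpG pairs at a GC content of 63.7%, while that of Stat3 held 15 at 60.7%. Over the 32851 promoters of the table the median ratio was 0.778 where a region spanned the start and 0.226 where none did. Stat3 lay below the lower quartile of 0.606 of the spanned promoters, and Lif lay within the quartiles of 0.118 and 0.391 of the others. Below a ratio of 0.6, where 14.0% of promoters had a region across the start, Stat3 fell on the same side as Lif.

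**Figure D1:**
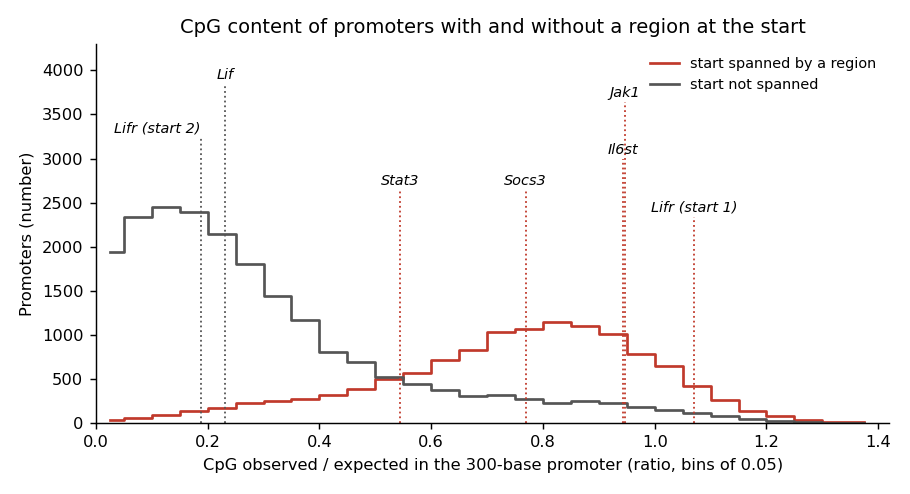
Number of 300-base promoters (vertical axis) by CpG observed-to-expected ratio (horizontal axis, in bins of 0.05), for promoters whose start was spanned by a region (red) or not (grey), over the 32851 promoters of the table. Dotted lines mark the promoters of the 6 genes in the colour of their class: Lif and the other start of Lifr sit at 0.231 and 0.188 among the promoters without a region, and the 5 spanned promoters sit between 0.545 and 1.07.

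Of 8 short motifs searched in these promoters, the STAT letters TTCNNNGAA occurred in 1 of the 6 genes, Socs3. The word there was TTCTTAGAA, 154 bases before the start at chr11:117969512-117969520, inside the start region. In all, 8.30% of the 32851 promoters held such letters, and the count of 1 gene rests on a single match. The GC box, which Sp and Klf factors bind, occurred in the 5 genes with a region across the start and not in Lif. In Lifr it lay at the first start and not at the other. Counted per promoter and not per gene, the GC box was present in 35.7% of all 32851. It was present in 68.0% of the promoters with a region across the start and in 16.6% of the others. Il6st had 3 matches, Lifr and Socs3 had 2 each, and Jak1 and Stat3 had 1 each. The CCAAT box, bound by the factor NF-Y, occurred at the starts of Il6st, Jak1 and Stat3 and at the other start of Lifr, against 37.4% of all promoters. In Stat3 the words ATTGG and GGGCGG began 79 and 69 bases before the start. The STAT letters with a spacer of 4 (TTC, any 4 bases, GAA), the octamer ATGCAAAT, the Esrrb letters TCAAGGTCA, the E-box CACGTG and the TATA box TATAAA matched none of these promoters; they were found in 6.95%, 1.74%, 0.423%, 7.15% and 13.6% of all promoters.

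In the wider windows, regions were most numerous for the ligand and the inhibitor genes. Within 50 kb there were 16 regions for Lif, 9 for Lifr, 8 for Il6st, 7 for Jak1, 7 for Stat3 and 12 for Socs3. The median over protein-coding genes was 7, with quartiles of 3 and 10. More regions than this median were found for 4 of the 6 genes, against 42.4% of protein-coding genes. A longer gene has a longer window, and per 100 kb of window the values were 13.9 for Lif, 4.35 for Lifr, 5.60 for Il6st, 3.28 for Jak1, 4.58 for Stat3 and 11.5 for Socs3, against a median of 4.68 over protein-coding genes. On this scale Lif, Il6st and Socs3 exceeded the median and Lifr did not. Lif was denser than 97% of protein-coding genes and Socs3 than 92.8%, while Lifr, Il6st and Stat3 were denser than 46.6%, 59.1% and 48.9% and Jak1 than 35%.

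**Figure D2:**
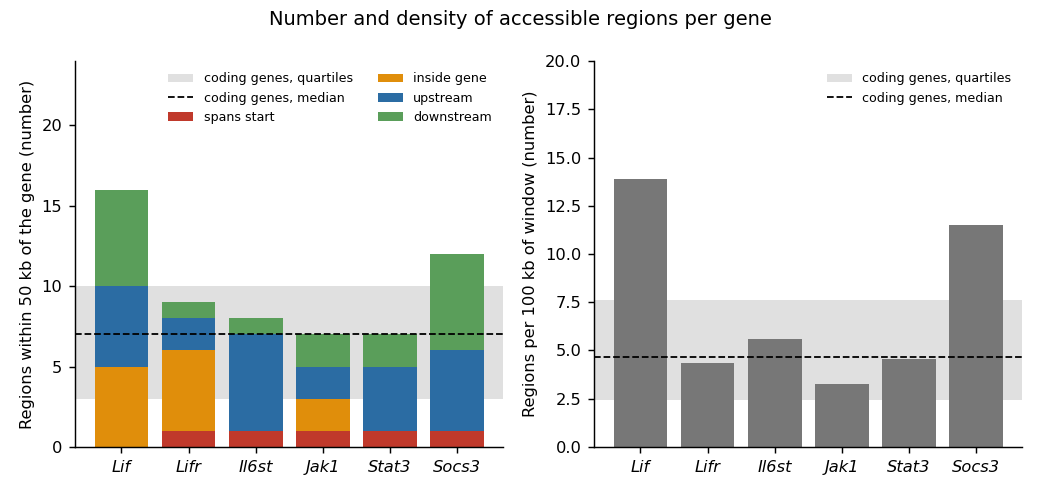
Number of regions within 50 kb of each gene, by position relative to the gene (left), and number per 100 kb of window (right); the dashed line and grey band give the median and quartiles over protein-coding genes. Lif and Socs3, with 16 and 12 regions, stand above the band on both scales, and the other 4 genes lie inside it.

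The regions of the 6 genes fell into 5 across a start, 12 inside a gene, 24 upstream and 18 downstream. Those across a start had a median width of 764 bp, and the other 54 had a median of 256 bp. All 59 together had a median of 291 bp, against 281 bp for the atlas, and 50.8% of them were wider than the atlas median. The atlas median includes regions across starts, so it is not a like comparison for the 54. Width is the one property that the list gives for a region, and it does not measure how open the region was. Regions wider than 1000 bp numbered 4 of 59, or 6.78%, against 3.74% of the atlas. These were the start region of Lifr, 1 region upstream of Jak1 and 1 on either side of Socs3. At the other extreme, 6 regions were narrower than 100 bp, 2 of them at the minimum of the list, 73 bp.

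**Figure D3:**
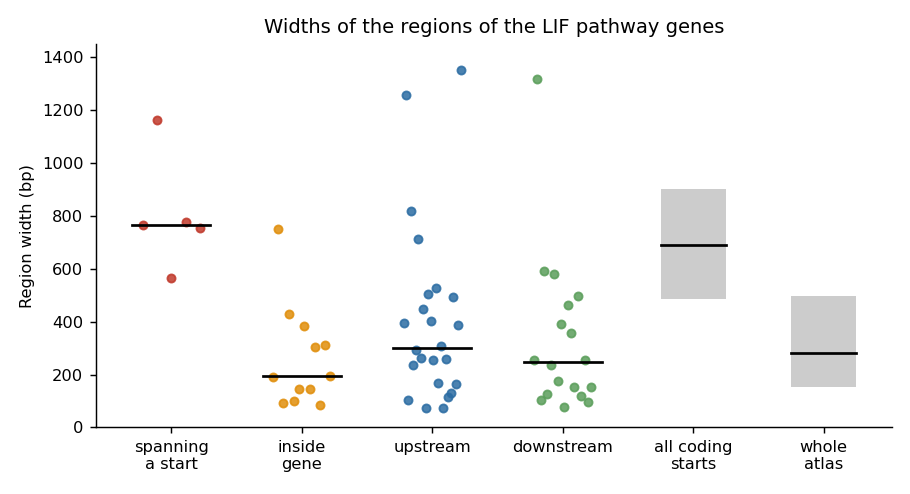
Width in bp (vertical axis) of each of the 59 regions by position relative to its gene, with a black line at the median; grey boxes give the quartiles and median of regions across starts of protein-coding genes and of the whole atlas. The 5 start regions lie between 566 and 1162 bp, and 3 regions away from starts measure 1256, 1318 and 1352 bp.

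Lif, whose product is the cytokine added to these cultures, had regions inside the gene and on both sides of it. There were 5 upstream, 5 inside the gene and 6 downstream, and the widest that did not lie at another gene was 711 bp wide, 10.9 kb before the start at chr11:4245917-4246627. A region of 403 bp followed it, at 9.80 kb, and a region of 494 bp at 4.20 kb. The 711 bp and 403 bp regions lay nearer to the far end of Osm, the gene of the related cytokine oncostatin M, at 4.89 and 6.33 kb, so that position does not assign them to Lif. The widest region of the window, 818 bp, spanned the start of Castor1, which encodes an arginine sensor of the mTORC1 pathway. From inside Castor1 to the 711 bp region no region was listed for 25.2 kb, a stretch that held Osm. Of the atlas gaps, 34.7% were longer. Inside Lif the 5 regions measured 313, 145, 383, 144 and 190 bp. Downstream, 3 regions of 391, 79 and 591 bp lay inside the lncRNA gene Gm11958. Dense surroundings without a region at an end were uncommon: of the 1341 protein-coding genes with at least as many regions as Lif, 13.2% had none at an end, a class defined after the values of Lif were seen.

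Lifr, the specific receptor chain, had 6 of its 9 regions with midpoints between 14 kb before and 5.11 kb past the first annotated start, the start region included. Measured to the nearer edge, a group of 749, 427 and 101 bp lay 13.6, 12.6 and 11.4 kb before it, and regions of 196 and 305 bp lay 3.20 and 4.96 kb past it. No region followed for 91.5 kb, a stretch that runs through the rest of the gene, and 9.06% of the gaps between neighbouring regions of the atlas were longer. The next region, of 153 bp, was inside Egflam. The outer limit of Lifr lies far upstream of its annotated starts, so the group before the start is inside the gene span, as is the start region.

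Il6st, which encodes the signalling chain shared by the receptors of this cytokine family, had 6 of its 8 regions upstream. A run of 3 regions, 257, 506 and 307 bp wide, lay 24.5, 23.6 and 23.1 kb before the start, between chr13:112439340-112439596 and chr13:112440700-112441006. The run spanned 1667 bp, of which 1070 bp were covered, and its gaps of 367 and 230 bp were shorter than 93.2% and 96.3% of the gaps of the atlas. A region of 393 bp lay 1.30 kb before the start. Apart from the start region, no region lay inside the 42.8 kb gene, and the gap after it measured 45.2 kb, with 21.3% of atlas gaps longer. The protein-coding neighbour Il31ra, the gene of a gp130-like receptor, had no region at either end.

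Jak1, the kinase gene, had the lowest density of the 6 and a single wide region outside its start. This region, 1256 bp wide at chr4:101292191-101293446, lay 27 kb before the start and inside the lncRNA gene Gm12796, and 914 regions of the atlas were wider. The 113 kb gene held regions of 85 and 91 bp, at 62.3 and 96.9 kb past the start, besides the start region. The far end of Jak1 overlaps that of Raver2, which encodes an RNA-binding protein, and the downstream regions of 95 and 237 bp lay inside Raver2.

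Stat3, the transcription factor of the pathway, had its start region and no other region that lay nearer to it than to another protein-coding gene. The 4 upstream regions, of 237, 73, 448 and 291 bp, were nearest to Cavin1, a gene for a caveolar coat protein. The 448 bp region lay 0.617 kb from the annotated start of Cavin1. Downstream of Stat3 lie Stat5a and Stat5b, which encode STAT proteins that act for other cytokines, and a region of 462 bp spanned the start of Stat5a. Between that region and the start region of Stat3 no region was listed for 78.6 kb, through the 52.8 kb of Stat3 and most of Stat5a; 11.3% of atlas gaps were longer. The start region of Stat3 also touched the lncRNA gene Gm46295, which overlaps the same end of the gene.

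Socs3, the feedback inhibitor, is a gene of 4.26 kb with a wide region on either side of it. The upstream one, 1352 bp at chr11:117975340-117976691, lay 5.97 kb before the start, and the downstream one, 1318 bp at chr11:117962552-117963869, lay 5.50 kb past it. Both were wider than the start region of 775 bp, and 557 and 675 regions of the atlas were wider than they were. At least 1 region over 1000 bp that spanned none of the gene's own starts lay within 50 kb of 19.6% of protein-coding genes with an annotated start, among them Jak1 and Socs3, and at least 2 such regions lay near 2.64%, among them Socs3. This class too was defined after the values were seen. Farther downstream there were regions of 580, 119, 357, 496 and 256 bp, with midpoints between 19.7 and 37.1 kb past the start. For these 5, as for the 2 wide ones, the nearest end of a protein-coding gene was that of Socs3. Upstream, regions of 386, 169, 263 and 114 bp lay inside Pgs1, which encodes an enzyme of cardiolipin synthesis, and the 386 bp region spanned its start.

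**Figure D4:**
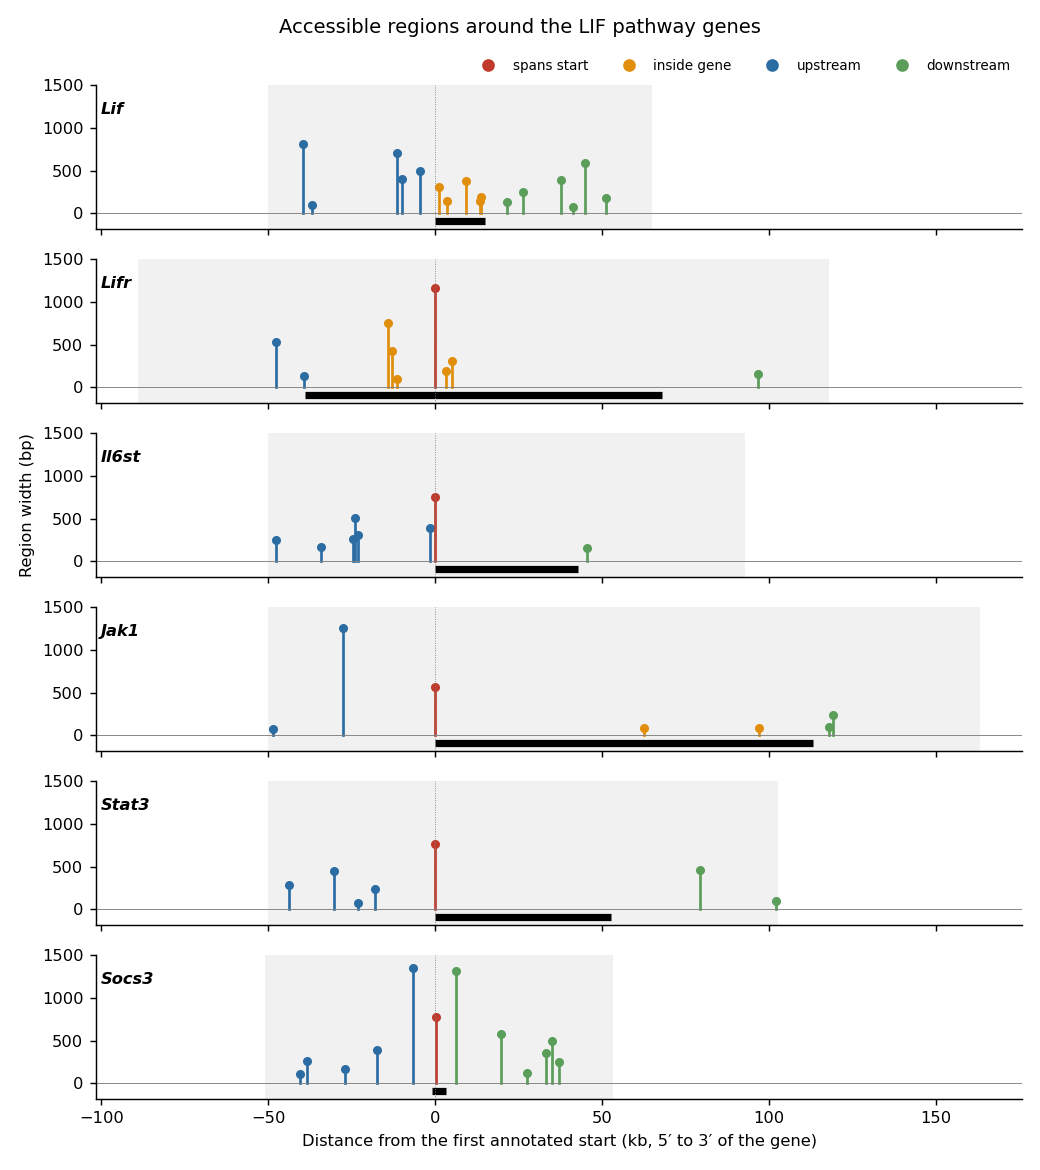
Regions around the 6 genes, each drawn at its midpoint (horizontal axis, kb from the first annotated start, with the gene reading left to right) as a stem with the height of its width in bp. The black bar is the gene, the grey field the window of 50 kb on both sides; Lif has no stem at its start, Socs3 has stems of 1352 and 1318 bp beside it, and the bodies of Il6st and Stat3 are empty past the start region.

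Over the 6 windows, 41 of the 59 regions had an end of the gene itself as the nearest end of a protein-coding gene. For the other 18 the nearest end was that of Castor1 or Osm near Lif, Egflam near Lifr, Ankrd55 near Il6st, Raver2 near Jak1, Cavin1, Stat5a or Stat5b near Stat3, and Pgs1 or Dnah17 near Socs3. Stat3 had the most such regions, 6 of 7. Lif and Socs3 had 4 each, Jak1 had 2, and Lifr and Il6st had 1 each. Of the 2 near Jak1 both were inside Jak1, where the overlapping end of Raver2 lies slightly nearer than that of Jak1. Distance along the chromosome does not show which gene a region acts on.

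Other genes of JAK-STAT signalling and known targets of STAT3 were listed by role, with earlier results of these data known. Most had a region at an end, with the cytokine genes as the main exception. Of 55 genes, 43 (78.2%) had a region within 1 kb of an end, against 62.0% of protein-coding genes, and their median of 10 regions within 50 kb compares with 7. The 55 include 12 STAT3 targets, which are not parts of the pathway, and all 12 had a region at an end, which raises the share. An end is either outer limit of a gene and need not be its start. A region spanned an annotated start for 25 of the 38 genes that had one, against 53.3% of protein-coding genes. Among 9 genes for cytokines of the gp130 family and their secreted partners, 1 had a region at an end. This was Ctf1, which encodes cardiotrophin 1, with a region of 1081 bp across its start; it is named after its value was seen. Osm and Ctf2 had none at an end although they had 14 and 12 regions within 50 kb, and Il6 had 3. Windows of neighbouring genes overlap, as do those of Osm and Lif and those of Ctf1 and Ctf2, so such counts share regions.

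Of the other 5 receptor chains, 3 had a region at an end: Il6ra with 983 bp, Il11ra1 with 490 bp and Osmr with 485 bp. Il27ra and Cntfr had none at an end and the highest counts within 50 kb, 16 and 13, and Osmr had the lowest, 5. The 3 other JAK kinase genes each had a region at an end, with 16 regions within 50 kb of Jak3, 13 of Tyk2 and 9 of Jak2. Of the 6 other STAT genes, 4 had one, and Stat4 and Stat5b had none. Stat6 and Stat2 had 13 and 11 regions within 50 kb, and Stat5a, beside the long gap at Stat3, had 2. Both regions of Stat5a were also counted for Stat3 and for Stat5b.

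The intracellular inhibitors and adaptors had a region at an end in each case: 7 of 7 genes of the SOCS family other than Socs3, 7 of 7 phosphatases and PIAS proteins, and 6 of 6 adaptors and Src family kinases, against 62.0% of protein-coding genes. In the SOCS family Socs7 had 14 regions within 50 kb, Cish 9 and Socs5 5. Among the phosphatases and PIAS proteins Pias4 had 16, Ptpn6, which encodes the phosphatase SHP-1, had 13, and Pias1 had 7. Among the adaptors and kinases Yes1, which encodes a Src family kinase, had 17 and Grb2 had 15. Of 12 genes known as STAT3 targets in mouse embryonic stem cells, 12 had a region at an end, against the same 62.0%. Among genes with an annotated start, a region spanned it for 7 of 9 STAT3 targets and 4 of 5 adaptors and kinases. The same held for 3 of 3 SOCS genes and 4 of 4 phosphatases and PIAS proteins, against 53.3% of protein-coding genes. In the remaining roles a region spanned a start for 2 of 3 kinases, 2 of 4 receptor chains, 2 of 5 STAT genes and 1 of 5 cytokine genes. Bcl3, a regulator of the NF-kappaB family, had 25 regions within 50 kb and Junb, an AP-1 subunit gene, 24; Sp5, which encodes a zinc finger factor, had 4.

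**Figure D5:**
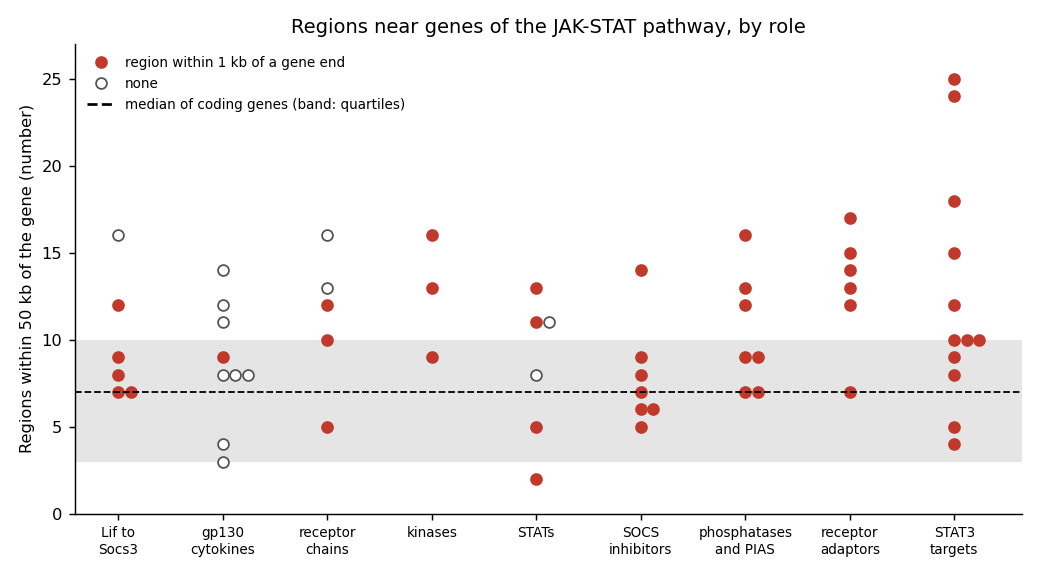
Regions within 50 kb (vertical axis, number) of each gene, with Lif to Socs3 at the left and the other pathway genes and STAT3 targets by role; filled points have a region within 1 kb of a gene end, and the dashed line and band give the median and quartiles of protein-coding genes. Open points are Lif, 8 of the 9 gp130 cytokines, 2 of 5 receptor chains and 2 of 6 STATs, and the other 5 roles hold none.

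Defining genes of the labelled cell type were checked by the same count. Of the pluripotency markers, Klf4 and Tfcp2l1 were also among the STAT3 targets above. Regions at gene ends were listed for 9 of 10 pluripotency markers, 8 of 10 markers of primed or differentiating cells and 3 of 10 feeder fibroblast markers, against 62.0% of protein-coding genes. Where an annotated start was given, a region spanned it for 7 of 9 pluripotency markers, 1 of 7 primed or differentiating markers and 1 of 5 feeder markers, against 53.3%. The feeder markers with a region were Col1a1, Fn1 and Twist1, and what feeder cells contributed to the regions of the LIF pathway genes was not tested.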

How the data were processed

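The deposited file is 1 list of 76872 regions on 21 chromosomes. The authors gave a chromosome, start and end in bp, with 0 columns of values per library. Per the submitters' processing notes, cutadapt, Bowtie2, Picard, SAMtools, bedtools and MACS2 2.1.1 and the build GRCm38 (mm10) were used; for parameters, any Tn5 shift and the merging of libraries: not given in the sources used here. A list that merges libraries counts a region open in 1 library like one open in 8. The labels' molecule (total RNA) and library source (transcriptomic) conflict with their titles and protocol, which were followed. They do not say whether replicates were separate cultures.

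Overlaps of at least 1 bp were counted in Python 3.11.15 with numpy 2.4.6 against RefSeq gene spans of GRCm38.p6 (21887 protein-coding genes; 17492 with an annotated start and promoter sequence). The overlap code was tested on 2000 simulated windows, with 0 disagreements with a direct count. The members and gene lists were chosen with earlier results of these data known. Named genes were the 6 members, their protein-coding neighbours, and per role the 2 genes with the most regions and 1 with the fewest; other names were picked once values were known. A gene that this rule names is not reported here. The planned comparisons between groups were not made, since the list has no value per library.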

Additional observations from a re-analysis of the deposited data

How the results depend on the processing

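No paired analysis was possible because the region list holds no value per library; for the same reason no replicate could be left out in turn. The planned search for STAT letters inside regions was not run, as no genome sequence was used here. Of 20 alternatives for the summary counts, 16 differed by less than 1.5 times from the reported value and 4 by 1.5 times or more. A count of 5 of the 6 genes cannot rise by 1.5 times, so for such counts only a fall could be labelled as moved. The 59 regions of the 6 genes became 39 with windows of 25 kb and 37 with regions of at least 200 bp, by construction of smaller windows and a shorter list. The number of genes above the median was 6 when all gene types set the median, which was then 5 regions. With a spacer of 4, the STAT letters were found in the promoters of 0 of the 6 genes. Of 30 alternatives for single genes, 22 differed by less than 1.5 times and 8 by 1.5 times or more. With regions of at least 200 bp Lif kept 9 of 16 regions, Lifr 5 of 9 and Jak1 3 of 7. With 25 kb Socs3 had 6 regions and Stat3 3. With 100 kb Socs3 had 22, Stat3 12 and Il6st 12. Depth is unknown, so a gene without a region was not shown to be closed.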

Other observations

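Over the whole promoter table, the motifs searched at the LIF pathway genes were compared between promoters with a region across the start and those without. The CCAAT box was present in 40.5% of the 12205 spanned promoters and in 35.6% of the 20646 others. The E-box CACGTG, matched at none of the LIF pathway genes, was present in 10.9% and 4.92%. The TATA box TATAAA, likewise without a match there, was present in 5.81% and 18.2%, and the STAT letters TTCNNNGAA in 6.46% and 9.38%. At a CpG observed-to-expected ratio of at least 0.6, 78.6% of 11765 promoters had a region across the start, and below it 14.0% of 21086. These shares are descriptions of 1 list, promoters of neighbouring genes and of the same gene share regions, and base composition by itself changes how often each set of letters occurs.

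Without a region at an end, protein-coding genes had a median of 3 regions within 50 kb. Lif, with 16, had more than 97.9% of these 8320 genes, a class defined after the values of Lif were seen. The ends lie inside the counted window, so leaving out genes with a region there lowers the counts partly by construction. Over all protein-coding genes, 93.9% had fewer regions than Lif.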
